A study of Rattus norvegicus with 18 samples.

Results

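T cells and natural killer (NK) cells were followed here through 51 genes in 9L, a rat gliosarcoma line used as a glioma model, both as tumours in Fischer rats and as cultured cells. The genes were taken by their symbols from a named list. Of the 51, 45 are listed under a single symbol in the array's annotation, each with 1 probe set, among 14324 genes and 27363 probe sets in all. Icos, Tigit, Bcl11b, Fasl, Il2rb and Eomes were not matched in this way and were not analysed here.

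Per the labels, tumours were started from 9L cells injected under the skin of the flank of male F344/Ncr (Fischer) rats that were 6 weeks old. Pieces were then passed from host to host, and epigastric tumours were grown by tying pieces of passage p5 or p6 to the epigastric artery and vein. From each of 3 tumours, a region without binding of EF5 (normoxic) and a region with it (hypoxic) were taken by laser capture microdissection. EF5 is a compound that is reduced and retained in cells where oxygen is scarce, and an antibody to it shows where it bound. The cultures were 9L cells alone, held at about 20% oxygen (normoxic) or at 0.2% oxygen (hypoxic) for either 6 h or 16 h, which makes 4 groups with 3 cultures in each. The hosts are of the Fischer strain, in which 9L cells arise, and no label gives them an immune deficiency or an immune treatment. The labels do not say which tumours were epigastric, and give tumour 3 another code (Sp) than tumours 1 and 2 (Ag), which they do not explain. The labels give culture numbers but not whether they stand for independent experiments; the p-values rest on the spread among these samples, part of which may be technical. Nor do they say that the tumours came from different animals.

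T cells recognise peptides on other cells through a receptor whose signal is carried by the CD3 chains and the zeta chain, with CD4 or CD8 as coreceptor. The kinases Lck and Zap70 and the adaptors Lat and Lcp2 pass that signal on, costimulatory receptors such as CD28 add to it, and inhibitory receptors such as CTLA-4, PD-1 and LAG-3 dampen it. NK cells and cytotoxic T cells kill through perforin and granzymes, and both read stress ligands through NKG2D, the product of Klrk1. A cultured glioma line holds no lymphocytes, so the 12 cultures give each probe set its background level.

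The arrays report log2 values, in which a difference of 1 is a doubling of signal. Array medians lay between 6.36 and 6.50 in the 6 tumour samples and between 6.02 and 6.19 in the 12 cultures, and dim probe sets as a whole read higher in tumours. With all probe sets ranked by mean value and cut into 4 classes of equal size, the median difference of normoxic tumour from normoxic culture was 0.26, 0.47, 0.29 and -0.62 from the dimmest class to the brightest. Of the 45 genes, 11, 21, 13 and 0 lie in these classes. Counts of genes above culture over the whole set are therefore given with the share of all probe sets and under other scalings of arrays. Counts against culture by role and by list are of the deposited values unless another scaling is named. The share to set beside them is 43.6% (normoxic) and 53.5% (hypoxic) of all probe sets higher at an adjusted p under 0.05 by limma. In 1 class of brightness these shares reached 72.2% and 81.2%. The normoxic sample of tumour 3 was unlike the other 5 tumour samples in that its correlation with the mean normoxic culture was 0.941, against 0.865 to 0.892 in the others. Values without it are given beside the largest differences and beside calls that it decided.

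The 3 CD3 genes opened the list with some of its largest values and lie next to one another in the rat genome, so their promoters are shown, with that of Klrk1. Each is the 250 bases before the start of the gene in RefSeq's GRCr8, read along the gene's own strand from 5′ to 3′. Capitals mark matches, on either strand, to fixed stretches of letters. They are AGGAAG, a form of the core bound by ETS factors, TGTGGT, for RUNX factors, and AGATAA, for GATA factors. Other forms of these cores are not marked. The regions are chr8:54185269-54185518 on the plus strand for Cd3d, chr8:54211771-54212020 on the minus strand for Cd3e, chr8:54183919-54184168 on the minus strand for Cd3g and chr4:164778383-164778632 on the minus strand for Klrk1.
Cd3d: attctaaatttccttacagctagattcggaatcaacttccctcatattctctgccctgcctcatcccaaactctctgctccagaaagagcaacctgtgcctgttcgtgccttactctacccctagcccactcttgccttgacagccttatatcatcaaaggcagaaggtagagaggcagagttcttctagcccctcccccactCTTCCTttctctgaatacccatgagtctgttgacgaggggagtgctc
Cd3e: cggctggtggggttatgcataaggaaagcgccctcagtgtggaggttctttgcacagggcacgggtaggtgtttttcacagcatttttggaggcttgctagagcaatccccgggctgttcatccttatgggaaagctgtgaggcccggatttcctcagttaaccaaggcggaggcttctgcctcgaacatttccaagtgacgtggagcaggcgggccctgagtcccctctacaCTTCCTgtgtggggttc
Cd3g: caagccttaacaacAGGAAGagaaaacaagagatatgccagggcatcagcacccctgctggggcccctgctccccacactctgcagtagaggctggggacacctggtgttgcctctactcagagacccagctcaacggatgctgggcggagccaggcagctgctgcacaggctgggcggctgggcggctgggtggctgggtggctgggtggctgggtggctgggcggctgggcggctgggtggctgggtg
Klrk1: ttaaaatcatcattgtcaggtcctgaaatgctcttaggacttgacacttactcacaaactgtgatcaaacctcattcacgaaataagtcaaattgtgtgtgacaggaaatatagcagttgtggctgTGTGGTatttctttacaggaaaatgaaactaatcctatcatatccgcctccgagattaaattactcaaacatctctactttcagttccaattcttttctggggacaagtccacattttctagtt
Counted from the start of the gene, the matches begin at position -47 in Cd3d, -17 in Cd3e and -236 in Cd3g, all to the ETS letters, and at -124 in Klrk1, to the RUNX letters. Of the 45 genes, 36 have a promoter in the RefSeq table. The ETS letters stood in 22 of these 36 (61.1%) and in 29.5% of all 33469 promoters of this length. The RUNX letters stood in 13 (36.1%) against 14.5%, and the GATA letters in 3 (8.33%) against 10.3%. Each of the 4 promoters shown holds 1 match to these letters, so none overlap. A match is a stretch of letters, and binding was not measured.

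The first comparison asked which of the genes stood above the level of 9L cells alone. In normoxic tumour regions T and NK cell transcripts were higher than in normoxic cultures across all 8 groups of genes. The largest differences were those of Cd3d (12.2-fold), Lag3 (9.10-fold), Klrk1 (8.46-fold), Cd3e (6.81-fold) and Cd3g (6.23-fold). Without the normoxic sample of tumour 3 these differences went from 3.61 to 2.55 log2 units for Cd3d, from 3.19 to 2.63 for Lag3, from 3.08 to 2.47 for Klrk1, from 2.77 to 2.07 for Cd3e and from 2.64 to 1.84 for Cd3g; all 5 were still called, and Lag3 was then the largest. limma called 43 of the 45 higher and 0 lower at an adjusted p under 0.05, against 43.6% of all probe sets called higher and 64.3% called in either direction. The median difference was 1.05 log2 units, against 0.24 over all probe sets. In hypoxic regions, against hypoxic cultures, 39 were higher and 1 (Cd28) lower, with 53.5% of all probe sets higher and 22.5% lower, and the median was 0.84 against 0.37. In the 3 classes of brightness that hold the genes, 11 of 11, 20 of 21 and 12 of 13 were higher in normoxic regions, against 43.5%, 72.2% and 46.6% of probe sets of the same class. In hypoxic regions 8 of 11, 19 of 21 and 12 of 13 were higher, against 68.2%, 81.2% and 51.4%. Without the normoxic sample of tumour 3, 42 were called in the normoxic comparison with a median of 0.97. In bulk samples, fewer cells of a type and less RNA per cell cannot be told apart, in this comparison and in those that follow.

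The scaling of the arrays moves these counts, more so in hypoxic regions. Of all calls in the normoxic comparison 67.8% were higher as deposited, 57.5% after quantile normalization, 34.0% after median centring and 49.6% after cyclic loess. The hypoxic comparison gave 70.4%, 61.1%, 45.8% and 48.0% in the same order. The median over all probe sets moved from 0.24 to 0.06, -0.07 and 0.01 in the normoxic comparison and from 0.37 to 0.11, 0.01 and 0.01 in the hypoxic one. Of the 45 genes, 36, 35 and 29 were higher in normoxic regions under these 3 scalings, against 22%, 16% and 18.3% of all probe sets. In hypoxic regions 25, 25 and 13 were higher, against 30.5%, 26.7% and 20.5%. A gene that was called higher under all 4 scalings is described as held. In normoxic regions 28 of 45 genes held, against 11.2% of all probe sets. In hypoxic regions 13 held, against 13.4%, and 10 genes held in both. With a difference of at least 1 log2 unit asked for as well, a rule added after the data were seen, 24 genes were called higher in normoxic regions (3.95% of all probe sets) and 17 in hypoxic regions (6.19%).

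**Figure D1:**
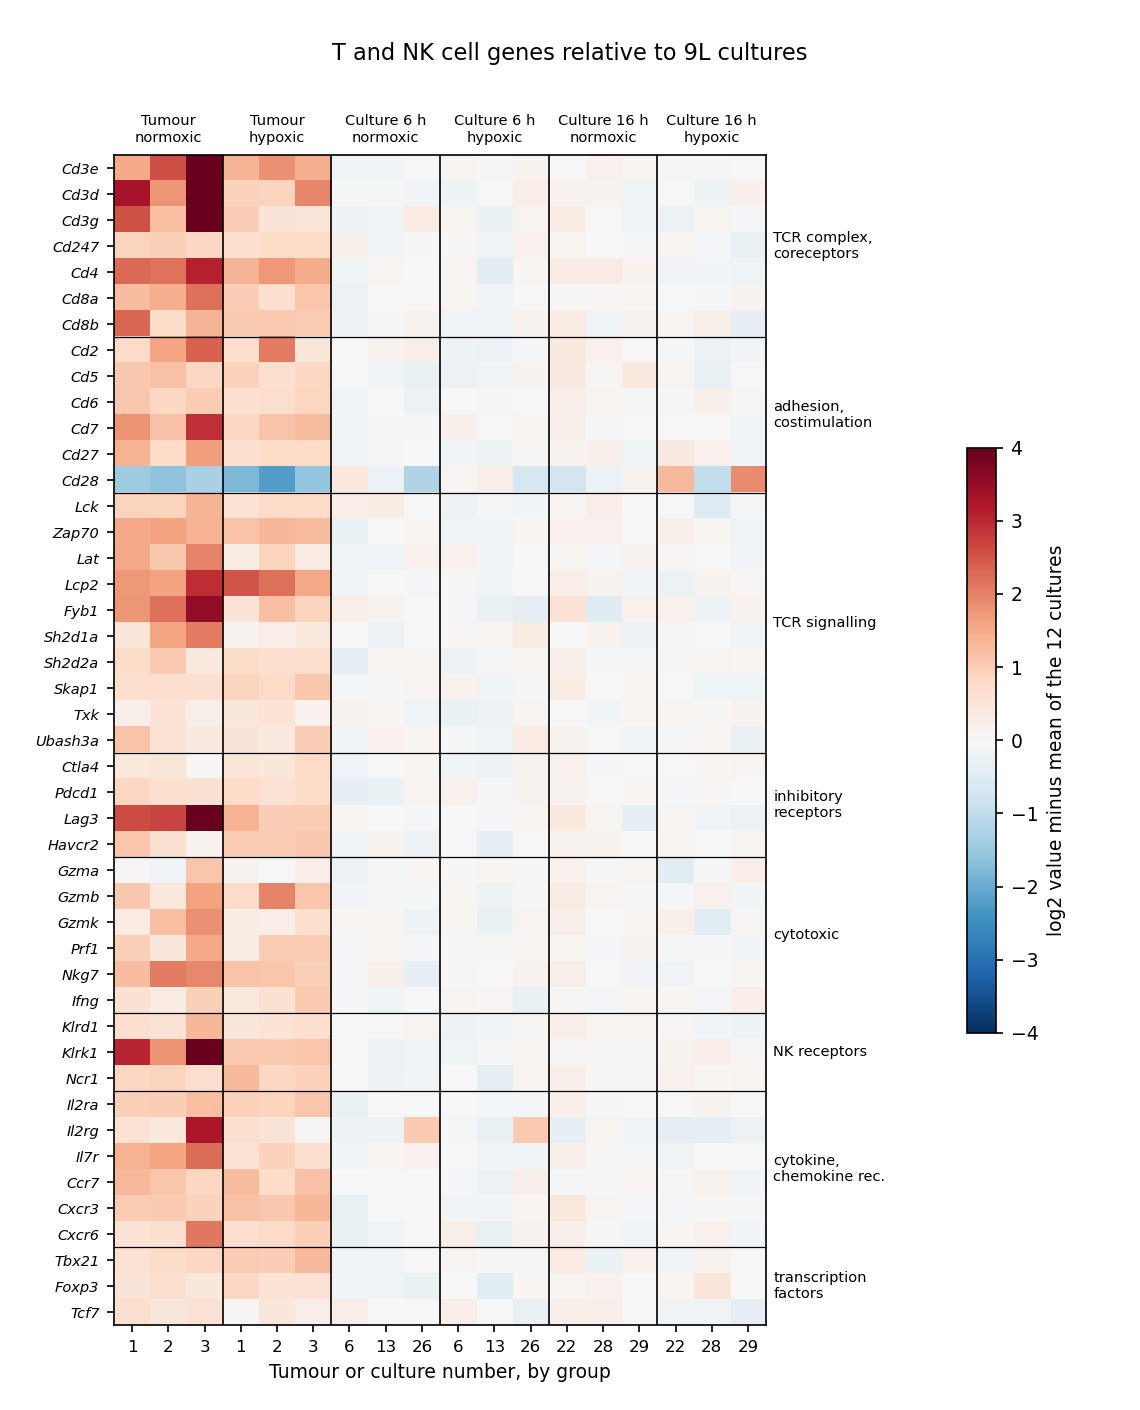
Each of the 45 genes (rows, by role) in each of the 18 arrays (columns, by group and sample number), as the log2 value minus the mean of the 12 cultures; colours are clipped at 4 and -4. The darkest cells are those of Cd3e, Cd3d, Cd3g, Lag3 and Klrk1 in the normoxic region of tumour 3, and Cd28 is the 1 gene that lies below the cultures in every tumour array.

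All 7 genes of the T cell receptor complex and its coreceptors were called higher in normoxic regions, and all 7 held. Cd3d, the delta chain, read 7.83, 6.32 and 10.27 in normoxic tumours 1, 2 and 3, while the 12 cultures lay at 4.34 to 4.80 with a median of 4.53. Cd3e, the epsilon chain, read 6.55, 7.63 and 9.20, and 4.86 to 5.22 in culture. Cd3g, the gamma chain, read 6.27, 4.92 and 7.99, and 3.46 to 4.05 in culture. Every normoxic region lay above every culture for each CD3 chain, and the tumours differed widely among themselves, with tumour 3 highest in all 3 chains. Differences from culture for Cd3d, Cd3e and Cd3g were 3.61 ± 0.54 (SE), 2.77 ± 0.35 and 2.64 ± 0.42. Adjusted p was 5.10e-05, 1.19e-05 and 8.20e-05 by limma. Each sets 3 tumours against 6 cultures, with the spread pooled over all groups, as in every comparison with culture. The SD among the 3 normoxic tumours was 1.99, 1.33 and 1.54, against 0.16, 0.12 and 0.20 over the 12 cultures. For these chains the SE and p-values thus overstate the precision across normoxic tumours. The same holds for other genes, among them Lag3, Klrk1, Fyb1 and Il2rg. Their SDs among normoxic tumours were 0.96, 1.23, 0.94 and 1.57, against 0.19, 0.14, 0.30 and 0.51 over the 12 cultures.

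The coreceptors were higher as well. Cd4, which marks helper T cells and in the rat also macrophages, read 7.42, 7.33 and 8.21 in normoxic regions and 4.73 to 5.48 in culture. Its difference of 2.40 ± 0.17 had the smallest p of the 45 genes (adjusted p = 5.31e-08, limma). Cd8a, a chain of the coreceptor of cytotoxic T cells, read 6.93, 7.15 and 7.90 against 5.48 to 5.83 in culture. Its partner chain Cd8b read 6.88, 5.32 and 5.94 against 4.25 to 4.88. Cd8a thus peaked in tumour 3 and Cd8b in tumour 1. Cd247, the zeta chain, differed least, at 0.88 ± 0.11, with 6.37, 6.44 and 6.29 in tumours and 5.19 to 5.68 in culture. In hypoxic regions 6 of the 7 were called higher, all but Cd3g (0.70 ± 0.42, adjusted p = 0.137), and Cd4 was the 1 of the 7 that held, at 1.63 ± 0.17. The Cd3d call (1.25 ± 0.54, adjusted p = 0.0448, limma) was lost under each other scaling, with the trended prior, and without any 1 hypoxic tumour or hypoxic culture (adjusted p 0.0528 to 0.410). In the fit of the 9 hypoxic arrays alone both Cd3d and Cd3g were called (adjusted p = 0.00117 and 0.00250).

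Among adhesion and costimulatory receptors, 5 of 6 were higher in both comparisons. After cyclic loess 5 were called higher in normoxic regions and 0 in hypoxic regions. Cd7, an immunoglobulin-type receptor of T and NK cells, was 3.92-fold higher in normoxic regions, with 7.22, 6.60 and 8.35 in the tumours and 5.25 to 5.67 in culture. Cd2, the receptor for CD48 in rodents, was 2.66-fold higher and read 6.62, 7.43 and 8.23 against 5.62 to 6.25. The TNF-family receptor Cd27 was 2.43-fold higher. Cd5 and Cd6, scavenger-type receptors that tune the T cell signal, were 1.96-fold and 1.98-fold higher, with no overlap between the 6 tumour arrays and the 12 cultures.

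Cd28 went the other way. It read 6.20, 5.99 and 6.33 in normoxic regions and 5.81, 5.37 and 6.02 in hypoxic regions, while the cultures read 6.40 to 9.51 with a median of 7.55. All 6 tumour arrays lay below all 12 cultures, which were themselves widely spread. The hypoxic difference of -2.20 ± 0.48 was called (adjusted p = 0.00072, limma), and the normoxic one of -1.13 ± 0.48 was not (adjusted p = 0.0503). In the normoxic comparison Cd28 was called after quantile normalization and median centring and not after cyclic loess. It is the 1 gene of the 45 whose cultures all lay above the tumours, and whether this probe set reads another transcript in 9L cells was not tested.

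Signalling genes were higher throughout in normoxic regions, 10 of 10, and 9 of 10 in hypoxic regions. With cyclic loess the counts called higher were 5 and 3. Lcp2, the adaptor SLP-76 that myeloid cells also use, read 7.33, 7.20 and 8.55 in normoxic regions, 8.11, 7.80 and 7.16 in hypoxic regions, and 5.38 to 5.88 in culture. Its difference was nearly the same in both comparisons, at 2.08 ± 0.25 and 2.11 ± 0.25. Fyb1, the adaptor ADAP that links the receptor to integrins, read 7.50, 7.94 and 9.30 in normoxic regions against 5.24 to 6.31 in culture, a difference of 2.40 ± 0.30. The kinase gene Zap70 was 2.79-fold higher in normoxic and 2.40-fold higher in hypoxic regions. Lat, the membrane adaptor that Zap70 phosphorylates, was 2.87-fold and 1.42-fold higher, and lost its hypoxic call under each of the other 3 scalings. Sh2d1a, the adaptor SAP of SLAM-family receptors, was 2.70-fold higher in normoxic regions. In hypoxic regions it read 4.68, 4.82 and 4.97 against 4.31 to 4.86 in culture, was not called, and changed sign under each of the other 3 scalings.

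The other signalling genes had smaller differences. Lck, the kinase bound to CD4 and CD8, was 1.87-fold higher in normoxic and 1.80-fold in hypoxic regions. Skap1, the partner of Fyb1, was 1.51-fold and 1.96-fold higher, Sh2d2a, a T cell adaptor, 1.65-fold and 1.61-fold, and Ubash3a, a suppressor of receptor signalling, 1.59-fold and 1.58-fold. Txk, a Tec-family kinase, was 1.25-fold and 1.32-fold higher as deposited, and lay below culture in both comparisons after quantile normalization and cyclic loess. Lck, Sh2d2a, Ubash3a and Txk held in neither comparison.

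Of the inhibitory receptors, Lag3, which binds MHC class II in competition with CD4, stood out. It read 8.31, 8.39 and 10.02 in normoxic regions, 7.07, 6.68 and 6.72 in hypoxic regions, and 5.33 to 6.07 in culture. All 6 tumour arrays lay above all cultures, and the difference was 3.19 ± 0.28 in normoxic and 1.16 ± 0.28 in hypoxic regions. Pdcd1, which encodes PD-1, was 1.66-fold and 1.58-fold higher, and held in both. Havcr2, the receptor TIM-3 that myeloid cells also carry, was 1.52-fold higher in normoxic and 2.07-fold higher in hypoxic regions, and held in the latter. Ctla4 was 1.24-fold higher in normoxic regions as deposited, with the sign turned under each of the other 3 scalings. In hypoxic regions it was 1.49-fold higher, a call lost under each of those scalings.

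Cytotoxic genes were called higher in 5 of 6 cases in normoxic and 4 of 6 in hypoxic regions. Of all probe sets 43.6% and 53.5% were, and up to 72.2% and 81.2% in a class of brightness. The hypoxic count was thus near the background share. Under quantile normalization, median centring and cyclic loess the counts were 4, 4 and 2 in normoxic and 2, 2 and 2 in hypoxic regions. Nkg7, a granule membrane protein, read 5.92, 6.76 and 6.60 in normoxic regions and 4.35 to 4.94 in culture, 3.37-fold higher. Gzmb, the granzyme of activated killer cells, read 8.30, 7.62 and 8.83 in normoxic, 7.99, 9.19 and 8.33 in hypoxic regions and 7.01 to 7.51 in culture. Its highest array was thus a hypoxic region, that of tumour 2, and it held in both comparisons. Gzmk, a granzyme found in memory T cells, was 2.11-fold higher in normoxic regions; in hypoxic regions it was not called (0.46 ± 0.24), with the sign turned after quantile normalization and cyclic loess. Perforin (Prf1) was 1.93-fold higher in normoxic regions. Ifng, the gene of interferon gamma, was 1.57-fold higher in normoxic regions and 1.56-fold in hypoxic regions. Gzmk, Prf1 and Ifng held in neither comparison, and every other scaling lost both calls of Ifng. Gzma was called in neither comparison, at 0.32 ± 0.21 and 0.16 ± 0.21, and lay below culture after quantile normalization and cyclic loess in both, and after median centring in the hypoxic one.

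The 3 NK cell receptors were all higher in both comparisons. Klrk1, which NK cells share with cytotoxic T cells, read 6.90, 5.66 and 8.11 in normoxic regions, 4.92, 4.90 and 4.99 in hypoxic regions and 3.63 to 4.13 in culture. The 3 hypoxic regions were almost alike, and the 3 normoxic regions were far apart. Klrd1, which encodes CD94, was 1.71-fold higher in normoxic regions. Ncr1, which encodes NKp46, a receptor largely kept to NK cells and other innate lymphocytes, was 1.75-fold higher in normoxic and 2.00-fold higher in hypoxic regions, with 5.52, 5.58 and 5.41 and then 5.99, 5.52 and 5.64 against 4.34 to 4.95 in culture. Klrk1, Klrd1 and Ncr1 held in normoxic regions, and Ncr1 alone of them in hypoxic regions.

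All 6 cytokine and chemokine receptors were higher in normoxic regions and 5 in hypoxic regions. With cyclic loess the counts called higher were 4 and 3. Il7r, the receptor chain for the survival factor IL-7, read 4.92, 5.11 and 5.77 in normoxic regions and 3.37 to 3.72 in culture, 3.21-fold higher. Cxcr3, the receptor for Cxcl9 and Cxcl10, read 7.20, 7.22 and 7.10 in normoxic and 7.35, 7.25 and 7.50 in hypoxic regions, against 5.88 to 6.59 in culture. Its 6 tumour values were close together, and all lay above every culture. Ccr7, the lymph node homing receptor, and Il2ra, the alpha chain of the IL-2 receptor, were 2.11-fold and 2.07-fold higher and held in both comparisons. Cxcr6, the receptor for Cxcl16, was 2.21-fold higher in normoxic regions and held in neither comparison. Il2rg, the common gamma chain, read 5.86, 5.70 and 8.50 in normoxic regions against 4.87 to 6.33 in culture. Only tumour 3 lay above every culture, and without it the difference of 1.36 ± 0.49 became 0.46 and was not called (adjusted p = 0.240, limma). Both cultures numbered 26 read 6.33 and 6.30 while the other 10 lay below both. In hypoxic regions Il2rg was not called (0.45 ± 0.49), with the sign turned after quantile normalization and cyclic loess.

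The 3 transcription factors had modest differences. Tbx21, which encodes T-bet of type 1 lymphocytes, read 6.46, 6.61 and 6.71 in normoxic and 6.90, 6.87 and 7.17 in hypoxic regions, against 5.61 to 6.21 in culture. It was 1.64-fold and 2.14-fold higher, and held in hypoxic regions. Foxp3, of regulatory T cells, was 1.50-fold higher in normoxic and 1.52-fold in hypoxic regions, and Tcf7, of naive and memory T cells, 1.37-fold and 1.29-fold. Neither of these held in either comparison.

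Counted without a test, 37 of the 45 genes (82.2%) had all 6 tumour arrays above all 12 cultures, against 24.8% of all probe sets. The 8 others were Cd28, Ctla4, Fyb1, Sh2d1a, Gzma, Il2rg, Foxp3 and Tcf7. The normoxic arrays alone lay above all cultures for 40 genes (27.6% of all probe sets) and the hypoxic arrays alone for 39 (41%). After quantile normalization, median centring and cyclic loess the count for all 6 arrays was 21, 20 and 15, against 11.9%, 6.88% and 8.86% of all probe sets.

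**Figure D2:**
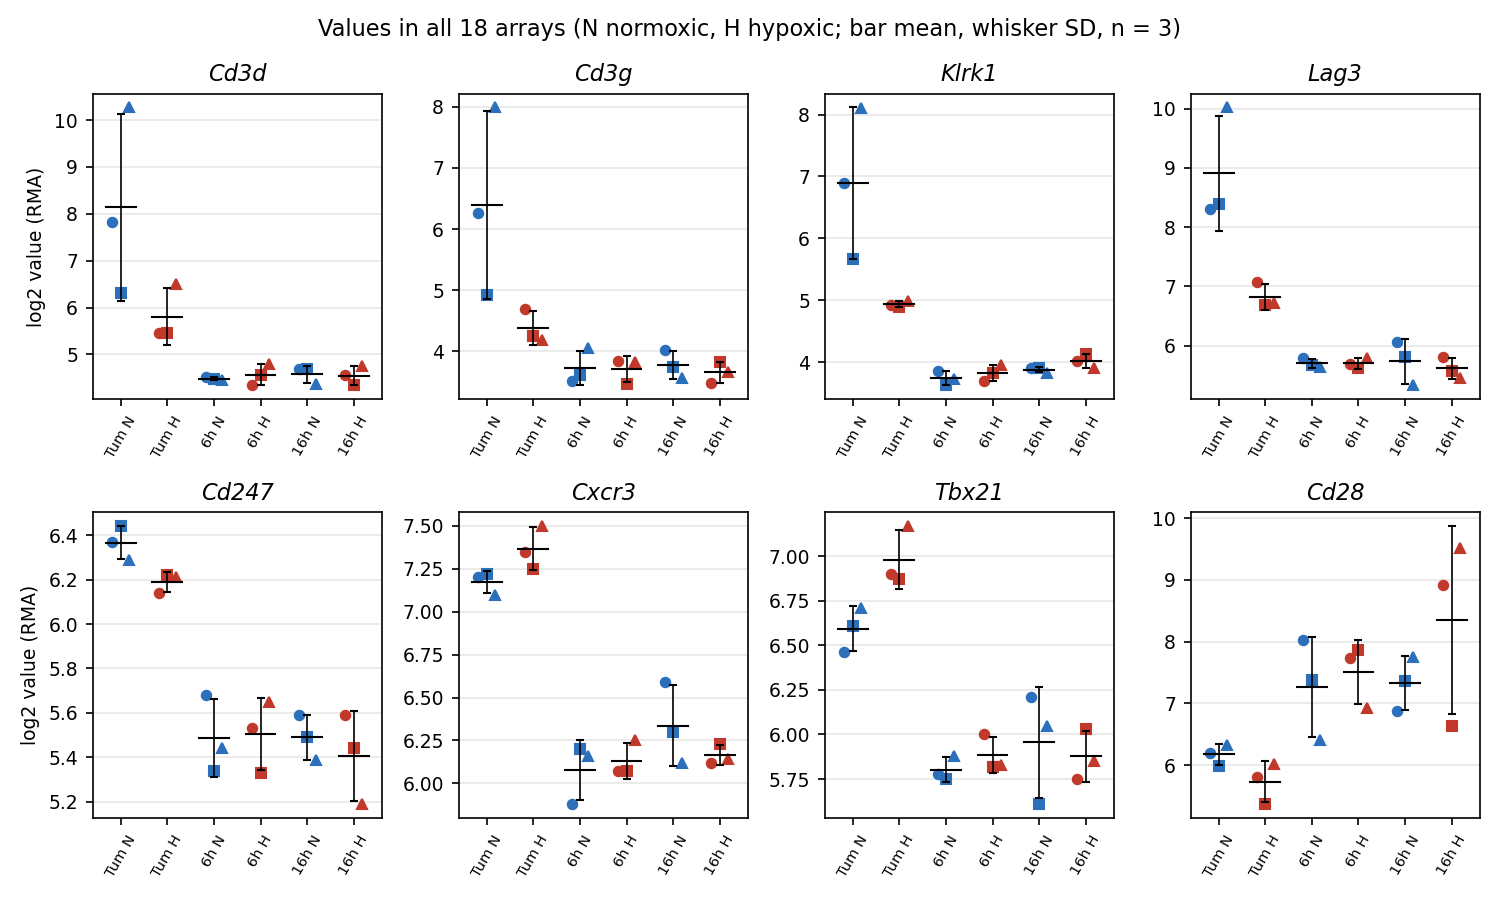
Log2 values of 8 of the genes in each of the 18 arrays, by group (Tum, tumour; 6h and 16h, cultures; N, normoxic, blue; H, hypoxic, red); points are samples, with shapes for tumours 1, 2 and 3 or for culture numbers in rising order, the bar is the group mean and the whisker the SD over 3 samples. Cd3d, Cd3g, Klrk1 and Lag3 are high and widely spread in normoxic regions, Cd247, Cxcr3 and Tbx21 differ between regions by a mean of -0.18, 0.19 and 0.39, and Cd28 is lower in tumours than in cultures; each panel has its own axis.

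The second comparison set hypoxic against normoxic regions within the same tumour. Most T and NK cell genes read lower in the hypoxic region, with the largest differences in CD3 chains, Lag3, Klrk1 and Fyb1, but none passed limma's test over all probe sets. The count was 0 of 45 (0% of all probe sets), and the smallest adjusted p of the 45 was 0.241. At an unadjusted p under 0.05, 14 of the 45 were lower and 0 higher, against 5.7% and 3.42% of all probe sets. Of the 45, 34 were lower and 11 higher, against 9637 lower and 17726 higher of all 27363 probe sets. The median was -0.30 against 0.10 over all probe sets.

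Most genes were lower in each tumour, by different amounts. In tumours 1, 2 and 3, 33, 31 and 33 of the 45 genes were lower, and the mean over the genes was -0.38, -0.21 and -0.87. All 3 tumours agreed on lower values for 23 genes (51.1%), against 11% of all probe sets, and on higher values for 3 (Skap1, Cxcr3 and Tbx21), against 22.9%. For 13 genes (28.9%) every hypoxic region lay below every normoxic region, against 4.62%. The highest of the 6 tumour arrays was the normoxic region of tumour 3 for 24 of the 45. Without tumour 3 the median was -0.24, 8 genes were lower and 1 higher at an unadjusted p under 0.05, and 26 were lower in both remaining tumours, against 22% of all probe sets.

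The call depended on the tumours and on the spread used. Without tumour 1, 7 genes were called lower by limma (Cd3e, Cd3d, Cd3g, Lag3, Fyb1, Sh2d1a and Klrk1), with 2.06% of all probe sets called. With the spread taken from all 18 arrays, 10 were called lower (Cd3d, Cd3g, Cd4, Cd8a, Lag3, Lat, Fyb1, Sh2d1a, Klrk1 and Il7r), with 5.15% of all probe sets called. Without tumour 2 or tumour 3, and under each other scaling, the count stayed at 0.

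**Figure D3:**
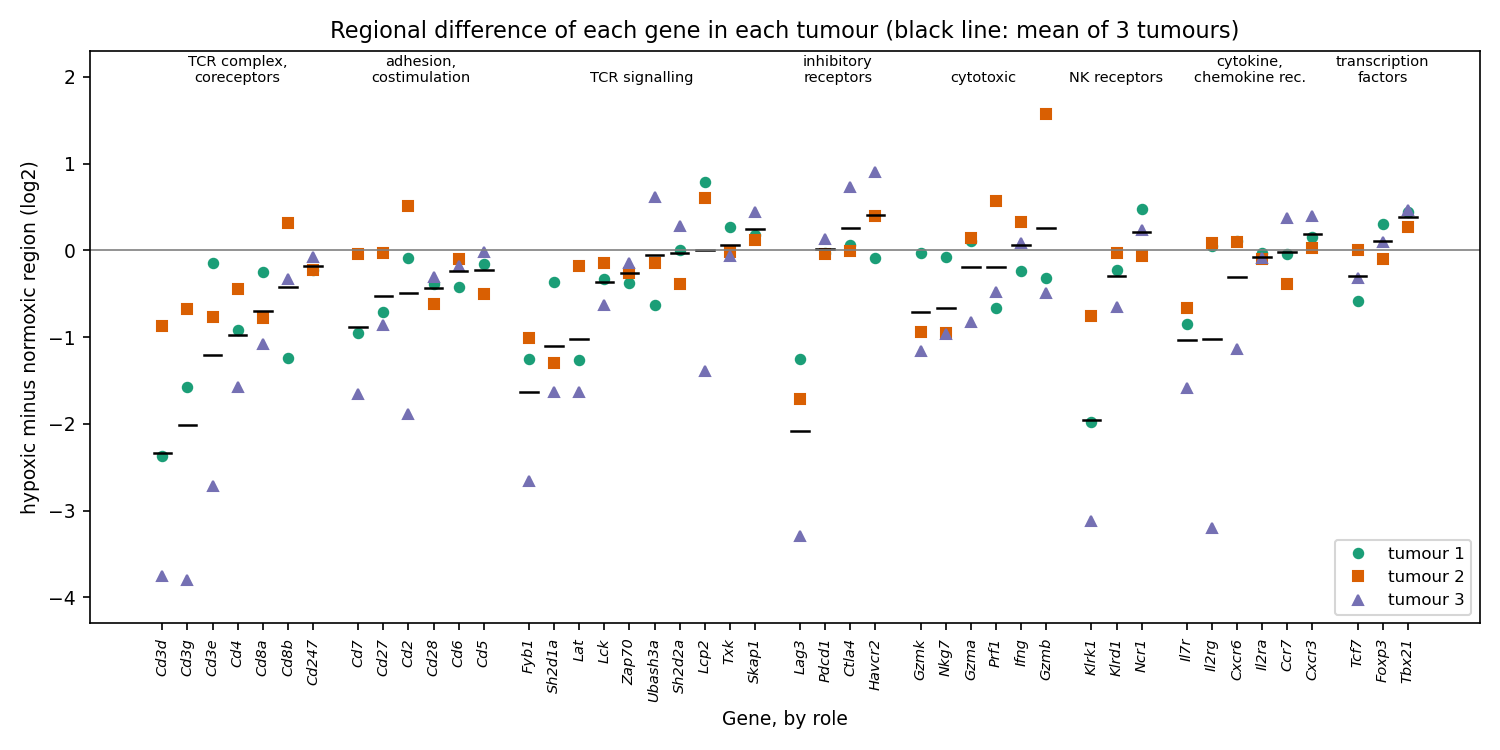
Hypoxic minus normoxic region, in log2 units, for each of the 45 genes (x axis, by role) in each of the 3 tumours; the black line is the mean. The receptor complex lies below 0 nearly throughout, tumour 3 gives the lowest points for most large differences, and Cxcr3, Skap1 and Tbx21 are above 0 in all 3 tumours.

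In the receptor complex all 7 genes had a mean below 0, with a median of -0.98. By limma 5 of the 7 were lower at an unadjusted p under 0.05, against 5.7% of all probe sets. Cd3d read 5.46, 5.45 and 6.51 in hypoxic tumours 1, 2 and 3, and its differences from the normoxic region were -2.37, -0.87 and -3.76. Its mean difference was -2.33 ± 0.51 (SE, n = 3 tumours; adjusted p = 0.280, limma), and -1.62 without tumour 3. Cd3g read 4.70, 4.25 and 4.19 in hypoxic regions, a mean of -2.01 ± 0.56 that became -1.12 without tumour 3. Its hypoxic values in tumours 2 and 3 were near the highest culture, 4.05. Cd3e read 6.41, 6.86 and 6.49, with differences of -0.14, -0.77 and -2.71, and its mean of -1.21 ± 0.47 was -0.46 without tumour 3.

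The coreceptors differed less, and more evenly. Cd4 read 6.50, 6.88 and 6.63 in hypoxic regions, a mean difference of -0.98 ± 0.26, with -0.68 without tumour 3. Cd8a read 6.69, 6.38 and 6.82, a mean of -0.70 ± 0.23. For Cd3d and Cd3e the ranges of both regions overlapped, while for Cd3g, Cd4 and Cd8a every hypoxic region lay below every normoxic one. Cd8b, at -0.42 ± 0.31, was higher in the hypoxic region of tumour 2 and lower in the other two. Cd247 was at -0.18 ± 0.18.

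Lag3 had the smallest p of the 45 genes between regions. Its differences were -1.25, -1.71 and -3.30 in tumours 1, 2 and 3, with a mean of -2.09 ± 0.39 (adjusted p = 0.241, limma) and -1.48 without tumour 3. The other 3 inhibitory receptors did not follow it. Pdcd1 was at 0.02 ± 0.18, and lay below 0 after median centring and cyclic loess. Ctla4 was at 0.26 ± 0.22 and Havcr2 at 0.40 ± 0.24.

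Klrk1 differed between regions by -1.97, -0.76 and -3.13, with a mean of -1.95 ± 0.43 (adjusted p = 0.281, limma) and -1.37 without tumour 3. The other NK cell receptors were close to 0, Klrd1 at -0.30 ± 0.21 and Ncr1 at 0.21 ± 0.20. Klrd1 is the nearest protein-coding neighbour of Klrk1 in the genome. Among the 45 genes 8 such neighbouring pairs involve 15 genes, and members of a pair did not have to match: Cd4 and Lag3, also neighbours, lay at -0.98 and -2.09, Gzma and Gzmk at -0.20 and -0.71, and Cd28 and Ctla4 at -0.44 and 0.26. Cd5 and Cd6 were alike, at -0.23 and -0.24.

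Adaptors and kinases split. Fyb1 differed by -1.25, -1.01 and -2.66, with a mean of -1.64 ± 0.34 and -1.13 without tumour 3, and all its hypoxic values lay below all its normoxic ones. Sh2d1a was at -1.10 ± 0.28 and Lat at -1.03 ± 0.31, the latter with -1.26, -0.18 and -1.64 in the 3 tumours. Lck and Zap70, the kinases at the top of the pathway, were at -0.37 ± 0.20 and -0.26 ± 0.18. Lcp2 was higher in the hypoxic regions of tumours 1 and 2, by 0.79 and 0.60, and differed by -1.39 in tumour 3; leaving out tumour 3 turned its mean from near 0 to 0.69. Skap1 was at 0.24 ± 0.19, Txk at 0.06 ± 0.19 (below 0 after quantile normalization and cyclic loess), Ubash3a at -0.05 ± 0.27 and Sh2d2a at -0.03 ± 0.21.

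Effector genes had no common direction between regions. Gzmk and Nkg7 were at -0.71 ± 0.26 and -0.66 ± 0.24, and both were lower in all 3 tumours. Gzma was at -0.20 ± 0.25 and Prf1 at -0.19 ± 0.28. Gzmb was at 0.25 ± 0.41, with -0.32, 1.57 and -0.50 in tumours 1, 2 and 3, and turned to -0.41 without tumour 2. Ifng was at 0.06 ± 0.20 and below 0 after quantile normalization and cyclic loess.

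Among surface receptors with other roles, Il7r differed by -0.85, -0.67 and -1.59, with a mean of -1.04 ± 0.24. Il2rg differed by -3.20 in tumour 3 and was near 0 in the others, so that its mean of -1.02 ± 0.64 became 0.07 without tumour 3. Cd7 was at -0.88 ± 0.32 (-0.49 without tumour 3), Cd27 at -0.53 ± 0.23 and Cd2 at -0.49 ± 0.45, the last higher in the hypoxic region of tumour 2 and at 0.21 without tumour 3. The chemokine receptors were at 0.19 ± 0.19 (Cxcr3), -0.02 ± 0.22 (Ccr7, above 0 after quantile normalization) and -0.31 ± 0.30 (Cxcr6, 0.10 without tumour 3), and Il2ra was at -0.08 ± 0.18. Of the transcription factors, Tbx21 was higher in all 3 hypoxic regions, at 0.39 ± 0.18, Foxp3 was at 0.10 ± 0.19 (below 0 after cyclic loess), and Tcf7 at -0.30 ± 0.20.

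The third comparison gives the response of 9L cells without host tissue. In culture no T or NK cell gene was called, 0 of 45 at 6 h (0.19% of all probe sets) and 0 of 45 at 16 h (0.705%). The medians of hypoxic minus normoxic culture were 0.03 and -0.09. At an unadjusted p under 0.05, Cd2 and Lck were lower at 6 h (2.03% of all probe sets lower), and Cd2, Cd4, Cd5, Lck, Klrd1 and Tcf7 at 16 h (3.79%). By that measure 0 were higher at 6 h (3.11% of all probe sets) and 0 at 16 h (4.41%). The largest of these differences was that of Cd4 at 16 h, -0.40 ± 0.13 (SE, 3 cultures against 3). Without regard to p, Cd28 at 16 h had the largest difference of the 45, 1.03. Its hypoxic cultures numbered 22, 28 and 29 read 8.92, 6.63 and 9.51, and its normoxic ones 6.87, 7.37 and 7.75. Number 28 thus went the other way.

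The last comparison asked whether the regional difference in tumours departs from the response in culture, with the mean of 6 h and 16 h as the culture response. limma called 2 of the 45 genes, Lag3 and Klrk1, both lower, against 1.17% of all probe sets called and 0.987% called lower. This fit pools the spread of tumours with that of cultures. Correlations within groups were 0.988 to 0.996 in cultures and 0.937 to 0.964 in tumours. In the fit of the tumour arrays alone neither gene was called (adjusted p = 0.241 and 0.281, limma). With culture responses near 0, these 2 calls largely restate the regional difference, judged with a spread that includes the cultures. Lag3 differed by -2.02 ± 0.37 (adjusted p = 0.0355), with -2.09 in tumours and values near 0 in culture, -0.0027 at 6 h and -0.12 at 16 h. Klrk1 differed by -2.07 ± 0.40 (adjusted p = 0.0438), with -1.95 in tumours, 0.09 at 6 h and 0.14 at 16 h. Sh2d1a (adjusted p = 0.0505), Cd3d (0.0513) and Fyb1 (0.0643) came next. At an unadjusted p under 0.05, 15 genes were lower (7.73% of all probe sets) and 1, Skap1, was higher (8.84%), and the median was -0.16 against 0.10.

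These 2 calls changed with the choice of libraries. Lag3 was called under the 3 other scalings, at -2.53, -2.07 and -2.15, and Klrk1 under none of them. Neither was called when any 1 of the 6 culture pairs was left out. Leaving out tumour 1, 2 or 3 gave 7, 10 and 4 calls, against 2.82%, 4.99% and 2.37% of all probe sets, with Lag3 in each set (-2.44, -2.21 and -1.42) and Klrk1 in the sets without tumours 2 and 3 (-2.66 and -1.48). Without the culture pair numbered 28, the 1 gene called was Cd28, at -1.51.

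Other genes known from T and NK cells gave values of the same kind. Of a second list of 42 such genes 33 were measured, and 31 were called higher in normoxic and 29 in hypoxic regions, with medians of 0.85 and 0.76. Under quantile normalization, median centring and cyclic loess these counts were 22, 24 and 21 in normoxic and 18, 19 and 10 in hypoxic regions. The largest was Ptprc, which encodes CD45 of all leukocytes, 17.9-fold higher in normoxic regions, with 8.41, 8.72 and 9.38 in the tumours and 4.43 to 5.01 in culture. Runx3, a transcription factor of cytotoxic cells, was 4.54-fold higher, Ctsw, a protease of killer cells, 3.19-fold, and Ptpn22, a phosphatase that restrains T cell signalling, 2.95-fold. Between regions 0 of 33 were called (0% of all probe sets). At an unadjusted p under 0.05 by limma, 10 were lower (5.7% of all probe sets) and 0 higher (3.42%). The median was -0.14, and the mean over the list was -0.22, -0.24 and -0.54 in tumours 1, 2 and 3. Ptpn22 was at -1.04 ± 0.19, Ctsw at -0.94 ± 0.20, the chemokine gene Ccl5 at -1.06 ± 0.28 and Cd48, the ligand of Cd2, at -1.02 ± 0.26.

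Of 22 ligands of the receptors 20 were measured, and 16 were called higher and 1 lower (Pvr) in normoxic regions, with 10 higher under each of the other 3 scalings. Between regions 14 of the 20 were lower, against 9637 of all 27363 probe sets. The mean over the list was -0.30, -0.36 and -0.67 in tumours 1, 2 and 3. Cxcl9, the interferon-induced ligand of Cxcr3, was 60.2-fold higher, with 10.58, 10.25 and 10.91 in normoxic regions, 9.01, 8.89 and 7.46 in hypoxic regions and 4.27 to 5.13 in culture. Every hypoxic value lay below every normoxic one, at a mean of -2.13 ± 0.42 (adjusted p = 0.251, limma), while its receptor gene Cxcr3 lay at 0.19. Cxcl10, another ligand of that receptor, read 7.49 to 9.81 in culture, so its normoxic tumour values of 9.01, 8.81 and 9.73 did not stand above 9L cells. Cxcl16, the ligand of Cxcr6, was 6.91-fold higher in normoxic regions, the costimulatory ligand Cd86 2.43-fold, and Nectin2 1.79-fold.

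Markers of other host cells moved beside these genes in part. Of 17 macrophage genes 16 were called higher in both comparisons with culture, with medians of 2.31 and 2.16, and Cd14 (0.18 ± 0.22 in normoxic regions) was in neither. The normoxic count was 15, 16 and 15 under the other 3 scalings. Lyz2 (lysozyme) was 145-fold higher in normoxic regions and C1qc (a complement subunit) 49.5-fold. The mean over the 17 read 8.12, 8.27 and 8.60 in normoxic regions of tumours 1, 2 and 3, 7.77, 8.01 and 7.54 in hypoxic regions, and 5.43 to 5.60 in culture. Macrophage genes were thus also lower in the hypoxic region of each tumour, at -0.35, -0.27 and -1.06, with the largest difference in tumour 3, as for the 45 genes. Their part in the regional values, those of Cd4, Lcp2 and Havcr2 among them, which macrophages also express, was not tested.

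The remaining lists of other cell types were each higher in the hypoxic region of at least 1 tumour. The 5 measured B cell genes had a mean over genes that was higher in the hypoxic region by 0.29 in tumours 1 and 3 and almost equal in tumour 2, and that of the 10 neutrophil genes was higher by 0.23, 0.03 and 0.67, although after cyclic loess 5 of the 10 neutrophil genes lay lower. The 7 glial and stem genes, taken as markers of 9L cells, were at 0.13, 0.17 and 0.28, higher in the hypoxic region of all 3 tumours. The median over all probe sets was 0.10 as deposited. With cyclic loess 4 of the 7 lay higher and 3 lower, at a median of 0.0034. The 7 dendritic cell genes lay at -0.02, -0.10 and 0.04, the 5 mast cell genes at 0.16, -0.21 and -0.02, and the 5 endothelial genes at 0.09, -0.04 and -0.23. The dendritic cell list includes Ccr7, which is also counted among the T and NK cell genes. Of all probe sets, 43.6% were called higher in normoxic regions against culture. The counts were 4 of 5 B cell, 6 of 10 neutrophil and 7 of 7 dendritic cell genes. All 5 mast cell and all 5 endothelial genes were called higher. Medians of these lists, in the same order, were 0.55, 0.38, 0.70, 0.46 and 0.67. After cyclic loess their counts were 2, 2, 4, 2 and 3. Of the 7 glial and stem markers 5 were called higher as deposited and 3 after cyclic loess.

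**Figure D4:**
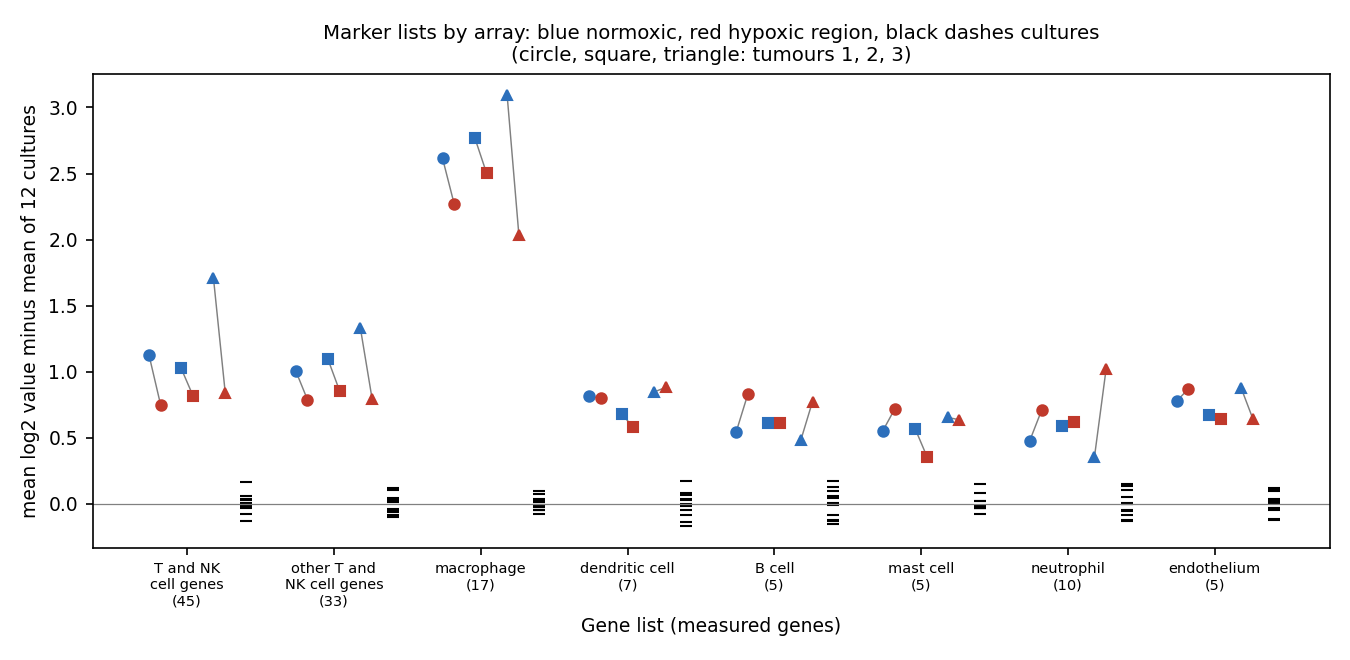
Mean log2 value of each gene list minus its mean in the 12 cultures (y axis) for the 45 T and NK cell genes and 7 other lists (x axis, measured genes in brackets); lines join both regions of a tumour and dashes are the 12 cultures. The T and NK cell genes and the macrophage genes lie lower in the hypoxic region of all 3 tumours, with the longest line in tumour 3, and the neutrophil genes lie higher.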

How the data were processed

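Per the labels, RNA was amplified with the NuGEN Ovation WT-Pico kit and hybridised to Affymetrix Rat Gene 1.0 ST arrays; the submitters' processing notes name RMA and Partek 6.5b for the deposited log2 signals. The sources used here do not state whether the 18 arrays were processed as 1 set. Arrays carry no read depth, and their number, 3 in a group, limits the precision.

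The deposited log2 values of 27363 probe sets were used unchanged. Symbols came from the platform annotation, in which 15097 probe sets have 1 symbol and 323 several; for a gene with more than 1 probe set, the one with the highest mean was taken. The Entrez identifiers of all 45 genes matched RefSeq's rat table under the same symbol. limma 3.58.1 in R 4.3.3 (lmFit and eBayes, two-sided) was run on all probe sets, with Benjamini-Hochberg adjustment over all of them and calls at 0.05. Regions were compared in the 6 tumour arrays, blocked by tumour, tumours with cultures over 18 arrays in 6 groups (against the mean of the 6 h and 16 h groups of the same oxygen), cultures over 12 arrays, and the tumour response with the culture response over 18 arrays with 9 pairs as blocks. Comparisons with culture share the cultures. The fits were tested on simulated data in which tumours and cultures had the same spread. That test cannot show the effect of the wider spread among tumours.

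Regions of 1 tumour are paired by design. Their deviations correlated at 0.128, 0.036 and 0.273 in tumours 1, 2 and 3. The normoxic region of tumour 2 correlated more (0.167) with the hypoxic region of another tumour. Same-numbered cultures deviated together, with correlations of 0.125 to 0.193 at 6 h and 0.130 to 0.307 at 16 h, and every pair over 0.1, so culture numbers were treated as pairs in an alternative, although the cultures numbered 6 correlated more (0.177) with another number; the replicate block left the calls at 0 of 45 at both times. The genes and all lists were chosen with earlier results of these data known. Every measured gene of the set is named; of each other list, genes were named among the 4 with the smallest p in normoxic tumour against culture and the 4 with the smallest p between regions, and Pvr and Cd14 as the exceptions to a count. Alternatives were quantile normalization, median centring, cyclic loess, leaving out the dimmest 25% of probe sets, another prior, other samples for the spread, the block, and leaving out each replicate. Promoter sequences are RefSeq's, build GRCr8.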

Additional observations from a re-analysis of the deposited data

Results flagged for a closer look

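For 5 genes the regional difference in tumours (the tumour response) differed from the mean culture response by limma, at an adjusted p under 0.05. They were 2 of the 45 genes, 2 of 33 other T and NK cell genes and 1 of 17 macrophage genes. Of all probe sets 1.17% were called, and no gene of the remaining lists was. Genes of the other lists were named by their p in these same data. The test pools the spread of tumours with that of cultures, which vary less. Lag3 differed by -2.02 ± 0.37 log2 units and Klrk1 by -2.07 ± 0.40. For both, the hypoxic region lay below the normoxic one in 3 of 3 tumours, as for 11% of all probe sets. The calls rest on these same values.

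Of the other lists, Ptpn22 differed by -1.06 (adjusted p = 0.0200), with hypoxic regions at 4.01, 4.03 and 4.59 and normoxic regions at 5.27, 4.98 and 5.51. Ctsw differed by -0.94 (adjusted p = 0.0259), with 6.03, 6.15 and 6.45 against 7.02, 7.33 and 7.11. C1qa, a complement subunit made by macrophages, differed by -1.77 (adjusted p = 0.0475), with regional differences of -0.92, -1.07 and -2.80 in tumours 1, 2 and 3. In each of these 3 genes every hypoxic region lay below every normoxic one, as in 4.62% of all probe sets. The genes were picked by these same values, so this adds no support. The part of the number of host cells in these differences was not tested.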

How the results depend on the processing

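Called genes in hypoxic regions went from 40 to 26, 26 and 14 with quantile normalization, median centring and cyclic loess, and those of all probe sets from 76% to 49.9%, 58.4% and 42.7%, with medians over the genes of 0.51, 0.49 and 0.31; the normoxic median was 0.73 with centring and 0.66 with loess; genes with all 6 tumour arrays above all cultures numbered 21, 20 and 15. Asking for 1 log2 unit left 24 normoxic and 17 hypoxic calls. Between regions, the spread of all 18 arrays gave 10 calls. The tumour response against the culture response gave 1 call with centring and 1 with loess. The cause was not tested.

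Leaving out each replicate gave 0 to 7 calls between regions, 0 to 10 for the tumour against the culture response, 41 to 44 for normoxic and 36 to 39 for hypoxic regions. Over all alternatives of the last comparison, Lag3 lay at -2.53 to -1.42 (adjusted p 0.00828 to 0.106) and Klrk1 at -2.66 to -1.48 (0.00229 to 0.119). Without the block between regions, 0 were called, and without it in the last comparison, 2; the block changed no other call.

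Signs turned between regions as follows. Quantile normalization gave Lcp2 0.12, Ifng -0.052, Ccr7 0.051 and Txk -0.021, centring Pdcd1 -0.030, and loess Pdcd1 -0.070, Ifng -0.10, Foxp3 -0.040 and Txk -0.10. Leaving out each tumour gave ranges of -0.57 to 0.043 for Prf1, -0.0010 to 0.20 for Foxp3, -0.037 to 0.13 for Txk, -0.39 to 0.23 for Ubash3a, -0.19 to 0.14 for Sh2d2a, -0.41 to 0.63 for Gzmb, -0.076 to 0.20 for Ifng, -0.21 to 0.17 for Ccr7, -0.99 to 0.21 for Cd2, -0.042 to 0.049 for Pdcd1, -0.40 to 0.69 for Lcp2, -0.36 to 0.12 for Gzma, -1.57 to 0.065 for Il2rg and -0.52 to 0.10 for Cxcr6. In normoxic regions against culture, quantile normalization gave Ctla4 -0.037, Gzma -0.047 and Txk -0.050, centring Ctla4 -0.0086, loess Ctla4 -0.075, Gzma -0.10 and Txk -0.15, and leaving out replicates Gzma -0.066 to 0.56. In hypoxic regions, quantile normalization gave Sh2d1a -0.22, Gzma -0.31, Gzmk -0.0030, Il2rg -0.0034 and Txk -0.055, centring Sh2d1a -0.14 and Gzma -0.20, and loess Sh2d1a -0.33, Gzma -0.44, Gzmk -0.13, Il2rg -0.19 and Txk -0.24.

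Of the values of single genes under alternatives, 1900 kept direction and side of the threshold, 117 lost a call, 45 gained one and 43 turned sign. A turned sign was counted as such even where a call was lost with it. For the culture responses and the tumour against the culture response, only genes at an unadjusted p under 0.05 in the main limma fit were counted. The Cd28 call without the culture pair numbered 28 is therefore not among those gained. The mean over several probe sets was not run, since each gene has 1.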
